A study of Cyprinus carpio with 12 samples.

Results

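Of the 80043 differentially methylated CpG regions listed for stored against fresh sperm of common carp (Cyprinus carpio) and for the embryos obtained with them, 2143 lay beside a protein-coding gene without touching any gene body. The sperm list held 1080 of these flanking regions among 41022 regions, and the embryo list held 1063 among 39021. A region was taken as flanking when it lay on one of the 50 chromosomes, overlapped the 1 kb before the start or after the end of a protein-coding gene by at least 1 bp, and overlapped no gene of any kind in the RefSeq gene table of the carp assembly ASM1834038v1. The choice used position alone and no methylation value, although each list itself contains regions that the authors selected for a difference between the groups. Among the other regions on the chromosomes, 22231 in sperm and 20545 in embryos overlapped a gene body, and 14568 in sperm and 14354 in embryos lay away from genes.

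Methylation was measured by whole-genome bisulphite sequencing in 4 groups of 3 libraries, which were 14-day-stored sperm, fresh sperm (day 0 after stripping), mid-blastula embryos from 14-day-stored sperm and mid-blastula embryos from fresh sperm. No strain is named in the labels. By the study's methods, the males were mature and hormone-injected, the same males gave fresh and stored sperm, storage was on ice in a saline extender, and the eggs of a single female were fertilised. Each embryo library pooled many embryos of its group, so a level is an average over embryos and over the cells in them. Storage cannot be told apart from the date of stripping or, in embryos, of fertilisation, since the sources used here do not say which of these the groups shared.

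A CpG is a cytosine followed by a guanine, and methyl groups on it are copied to the new strand by a maintenance methyltransferase when DNA is replicated. In vertebrates, fish included, most CpGs of the genome are methylated, while CpG-rich stretches at the starts of many genes stay largely unmethylated, and methylation there is commonly associated with a silent gene. Sperm of fish carries a highly methylated genome. The mid-blastula is the stage at which the embryo begins to transcribe its own genome, so the sequences beside its genes are then coming into use.

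The gene table gives a start and an end for each gene but no strand. The 1 kb before the start is therefore the promoter side of some genes and the downstream side of the others, and neither is called a promoter here. The table held 59559 genes, 55089 of them on the chromosomes, of which 41870 were protein-coding and 9616 of those had a symbol other than a locus number beginning with LOC. Positions are given on the chromosomes of the A and B subgenomes of this tetraploid species, numbered A1 to A25 and B1 to B25. They are taken to count from 1, which the sources used here do not state. Region ends and distances may therefore be off by 1 bp, and an overlap of 1 bp may be none.

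All levels are the authors' means for a group, written as the percentage of methylated CpG, with a single value for the 3 libraries. Neither the values of single libraries nor the read depth is in the lists, so no level has an error, no difference could be set against the spread between libraries, and no test was made. A difference is the level of the stored group minus that of the fresh group in percentage points, and "gain" and "loss" mean higher and lower in the stored group and nothing more. Shares of regions carry a 95% Wilson interval that covers counting error over regions alone, and regions are not replicates. Every listed region had at least 5 CpG cytosines and differed by at least 10 points. The count of CpG cytosines appears to include both strands, because 5 flanking regions in sperm and 8 in embryos were too short to hold their count on 1 strand.

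In sperm, flanking regions with higher methylation in the stored group outnumbered those with lower methylation. Of the 1080 regions, 650 were higher and 430 lower in 14-day-stored sperm, a share of 60.2% higher (57.2% to 63.1%), against 62.0% of all listed sperm regions. The share was 63.8% (63.2% to 64.5%) in gene bodies and 60.1% (59.3% to 60.9%) away from genes, and the flank share was above that of the gene bodies of the same chromosome on 19 of 50 chromosomes. Gains lay in highly methylated sequence, with median levels of 93.7% in 14-day-stored sperm and 80.6% in fresh sperm. Losses lay at lower levels, with medians of 60.8% in 14-day-stored sperm and 78.5% in fresh sperm. Gene body losses had medians of 79.8% in 14-day-stored sperm and 93.4% in fresh sperm. The excess of gains was not present in every kind of flanking region. It was absent among the 158 regions with at least 10 CpG cytosines, of which 42.4% were higher, and among the 150 regions that differed by at least 20 points, of which 50.0% were higher. At 20 points the whole sperm list had no excess of gains either, with 1707 regions higher and 2098 lower. No share outside the flanks is given here for regions with at least 10 CpG cytosines.

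In embryos, both directions were close to equal in number. Of the 1063 flanking regions, 561 were higher and 502 lower in embryos from 14-day-stored sperm, a share of 52.8% higher (49.8% to 55.8%) beside 50.4% of all listed embryo regions. Gene bodies had 49.9% and sequence away from genes 51.1%. Gains had median levels of 89.7% in embryos from 14-day-stored sperm and 75.2% in embryos from fresh sperm. Losses had median levels of 74.8% in embryos from 14-day-stored sperm and 90.5% in embryos from fresh sperm. The share reached 57.4% among the 190 regions with at least 10 CpG cytosines, and was 48.8% among the 160 regions that differed by at least 20 points. At 20 points the whole embryo list had 2040 regions higher and 1856 lower.

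**Figure D1:**
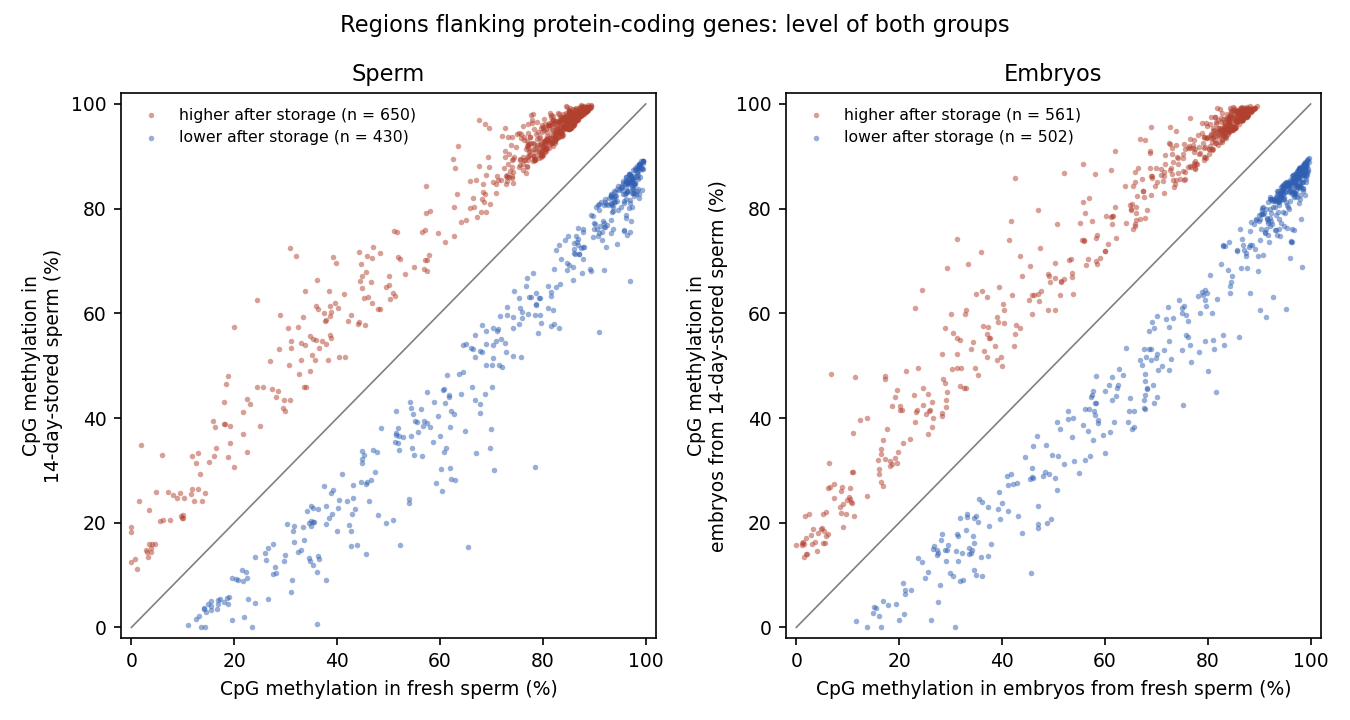
Methylation level of each flanking region, with the stored group on the vertical axis and the fresh group on the horizontal axis (both in %, mean of 3 libraries by the authors), for sperm on the left and embryos on the right. Each point is 1 region, red where higher and blue where lower in the stored group, and the empty band along the diagonal is the 10-point minimum of the lists. Sperm gains crowd into the upper right corner while sperm losses are spread over the whole range.

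Regions of low and intermediate methylation made up a larger share of the flanking regions than of the other listed regions, in sperm and in embryos alike. The mean of both groups' levels was used to class each region. Under 25% methylation lay 99 flanking regions in sperm, 9.17% of them (7.59% to 11.0%), against 2.59% of gene body regions (2.39% to 2.81%) and 3.51% of regions away from genes (3.23% to 3.83%). In embryos 111 flanking regions lay under 25%, which is 10.4% (8.74% to 12.4%), against 2.93% in gene bodies and 3.89% away from genes. The flank share under 25% was above the gene body share of the same chromosome on 38 of 50 chromosomes in sperm and on 42 of 50 in embryos. A further 312 flanking regions in sperm (28.9%) and 334 in embryos (31.4%) lay from 25% to 75%, against 16.2% and 17.3% of gene body regions. The remaining 669 in sperm and 618 in embryos were methylated at 75% or more. Windows that were not listed are not used here, so the share of all flanking sequence at these levels is unknown, and the difference between places was not tested.

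Direction in sperm went with the level of the region. Among sperm flanking regions at 75% or more, 70.9% were higher in the stored group (67.3% to 74.2%), against 42.9% of those from 25% to 75% (37.6% to 48.5%) and 42.4% of those under 25% (33.2% to 52.3%). The same order of high against intermediate and low regions was found in gene bodies, with 68.8%, 42.0% and 45.3% higher, and away from genes, with 65.7%, 42.5% and 41.0%. The lists hold only regions that the authors selected for a difference, and the reason for the order was not tested. In embryo flanks the 3 classes were alike, with 53.4% higher at 75% or more, 51.5% in between and 53.2% under 25%.

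**Figure D2:**
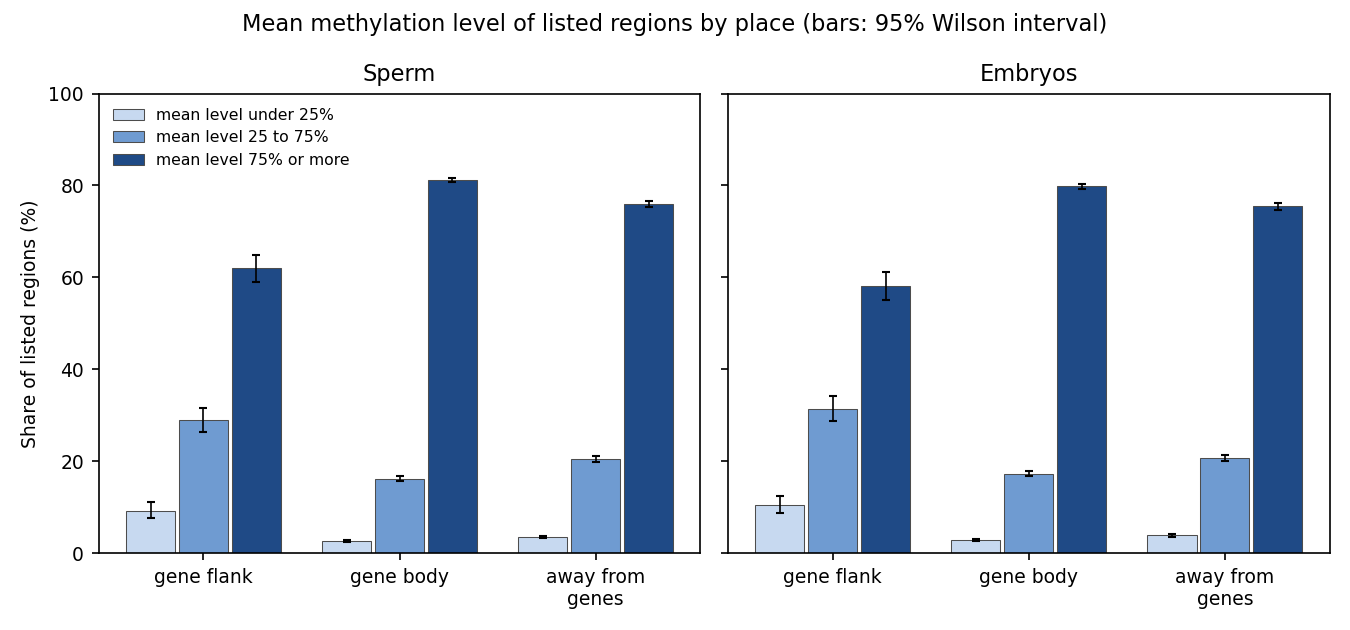
Share of listed regions (vertical axis, %) in 3 classes of mean methylation level, for gene flanks, gene bodies and sequence away from genes, in sperm (left) and embryos (right). Bars start at 0 and error bars are 95% Wilson intervals over regions, and in both panels the flanks have the tallest bars under 25% and from 25% to 75% and the shortest bar at 75% or more.

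Differences of at least 20 points made up a larger share of the regions at flanks than elsewhere, a difference that was not tested either. In sperm 75 flanking regions (6.94%) were at least 20 points higher and 75 (6.94%) at least 20 points lower in the stored group, beside 4.16% higher and 5.11% lower over the whole sperm list. Both directions together made 13.9% of sperm flanking regions (12.0% to 16.1%), against 8.26% in gene bodies (7.91% to 8.63%) and 9.85% away from genes (9.38% to 10.3%). In embryos 78 flanking regions (7.34%) were at least 20 points higher and 82 (7.71%) at least 20 points lower, beside 5.23% higher and 4.76% lower over the whole embryo list. Both directions together made 15.1% (13.0% to 17.3%), against 8.95% in gene bodies and 10.5% away from genes. The size of the difference went with the level too. Its median in sperm flanks was 17.6 points from 25% to 75% methylation and 11.9 points at 75% or more, and in gene bodies it was 17.4 and 11.7 points in the same classes. The median size over all flanking regions was 13.0 points in sperm and 13.4 points in embryos.

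The regions were short. Their median length was 97.5 bp in sperm and 84.0 bp in embryos, with a median of 5 CpG cytosines in both and a maximum of 33 in sperm and 43 in embryos. The shares of gains before a gene's start and after its end were close. Without strand, each of these sides mixes promoter and downstream flanks, so the shares cannot compare those. In sperm 59.7% of the 521 regions before a gene's start were higher in the stored group, against 60.0% of the 487 after a gene's end. In embryos the shares were 51.5% of 503 before a start and 53.6% of 496 after an end. Another 72 regions in sperm and 64 in embryos lay between neighbouring genes, after the end of one and before the start of the next. Chromosomes A1 to A25 held 543 sperm flanking regions (61.9% higher) and 536 embryo regions (52.6% higher), and chromosomes B1 to B25 held 537 (58.5%) and 527 (52.9%).

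Within the 1 kb, the share of regions under 25% methylation was largest in the first 200 bp. It did not fall steadily with distance from the gene. In the first 200 bp from the gene, 13.2% of 204 sperm regions lay under 25% methylation (9.26% to 18.6%), against 8.96% of 212 in the last 200 bp (5.81% to 13.6%). In embryos the shares were 14.4% of 180 regions in the first 200 bp (10.1% to 20.3%) and 7.39% of 230 in the last (4.67% to 11.5%). The intervals of the first and last bins overlap in both tissues. The share of gains in sperm was 65.7% in the first 200 bp (58.9% to 71.9%) and 56.6% in the last (49.9% to 63.1%), and these intervals overlap as well. Regions just inside and just outside the limit were similar in number, with 104 sperm regions in the last 100 bp of the flank against 112 in the next 100 bp, and 119 embryo regions against 121.

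The flanking regions belonged to 1097 protein-coding genes in sperm (2.62% of all) and 1059 in embryos (2.53%). Of these genes 227 in sperm and 183 in embryos had a symbol. Next to genes with a symbol lay 221 sperm regions, 132 of them higher and 89 lower in the stored group, and 187 embryo regions, 88 higher and 99 lower. The following regions are the largest gains and losses among these, and they describe the ends of the lists.

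The largest gain in sperm beside a gene with a symbol was at fmr1, which encodes an RNA-binding protein that controls translation in neurons. A stretch of 143 bp with 9 CpG cytosines at positions 8330688 to 8330830 of A14, 336 bp before the gene's start, was methylated at 57.5% in 14-day-stored sperm and 20.0% in fresh sperm, a difference of 37.5 points. Beside rsph3, a radial spoke component of motile cilia and of the sperm flagellum, the level was 46.5% in 14-day-stored sperm and 18.3% in fresh sperm at 6786539 to 6786677 of B20. The strip between leng8 and LOC109048699 on B16 had 57.1% in 14-day-stored sperm and 30.4% in fresh sperm. These 3 regions were below 31% in fresh sperm and at or above 46% in stored sperm.

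Several sperm gains began from sequence with little or no methylation. At cckbra, a receptor for the peptide hormones cholecystokinin and gastrin, 24.2% was methylated in 14-day-stored sperm and 1.39% in fresh sperm. At nfatc3b, a calcium-regulated transcription factor, the level was 25.8% in 14-day-stored sperm and 4.71% in fresh sperm, in a stretch of 30 bp that began 25 bp after the gene's end. At mfsd3, a membrane protein of the major facilitator superfamily, it was 39.5% in 14-day-stored sperm and 15.9% in fresh sperm. At pcdh2aa1, a protocadherin that mediates cell adhesion, it was 38.2% in 14-day-stored sperm and 16.3% in fresh sperm. In these 4 regions fresh sperm lay below 17%.

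Other gains were at intermediate levels in both groups. The deubiquitinase family gene mindy4 on B8 had 75.7% in 14-day-stored sperm and 51.1% in fresh sperm. The region at dbn1, which encodes the actin-binding protein drebrin, had 63.6% in 14-day-stored sperm and 41.4% in fresh sperm. At wdr26a, a subunit of a ubiquitin ligase complex, 62.0% was methylated in 14-day-stored sperm and 39.5% in fresh sperm. The region beside apool, a component of the complex that shapes mitochondrial cristae, had 58.4% in 14-day-stored sperm and 37.6% in fresh sperm.

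The largest difference of all sperm flanking regions was a loss at usf2, a transcription factor that binds E-box sequences. In 61 bp with 11 CpG cytosines at 20204072 to 20204132 of B19, 416 bp after the gene's end, 15.3% was methylated in 14-day-stored sperm and 65.3% in fresh sperm, a difference of -50.0 points. A neighbouring region of usf2 at 20204236 to 20204315 was lower as well, with 29.3% in 14-day-stored sperm and 41.0% in fresh sperm. Both listed regions of the usf2 flank were thus losses.

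Among the other large sperm losses were regions at regulators of transcription and chromatin. The even-skipped homeobox gene eve1 on B3 had 30.5% in 14-day-stored sperm and 62.0% in fresh sperm. The strip between hsf1, the main activator of heat shock genes, and si:ch211-80h18.1 on B19 had 27.7% in 14-day-stored sperm and 59.1% in fresh sperm. At nsd2, a methyltransferase of lysine 36 of histone H3, the level was 15.6% in 14-day-stored sperm and 42.6% in fresh sperm. These are single regions chosen for their size, and no enrichment of such genes was tested.

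A loss at clasp1a, which stabilises microtubule ends, had 15.7% in 14-day-stored sperm and 52.2% in fresh sperm. At cdkn2d, an inhibitor of cyclin-dependent kinases, the level was 33.3% in 14-day-stored sperm and 67.0% in fresh sperm. At cmlc1, a myosin light chain of cardiac muscle, it was 37.9% in 14-day-stored sperm and 69.9% in fresh sperm. All of these were methylated above 50% in fresh sperm and below 40% in stored sperm.

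At wipi2, an autophagy protein that recruits the machinery that lipidates LC3, 14.0% was methylated in 14-day-stored sperm and 45.6% in fresh sperm. At iars1, the isoleucyl-tRNA synthetase, it was 15.7% in 14-day-stored sperm and 43.9% in fresh sperm. At atp6v0ca, a subunit of the proton-pumping vacuolar ATPase, it was 41.0% in 14-day-stored sperm and 67.7% in fresh sperm. The region at tmem8b had 6.84% in 14-day-stored sperm and 31.0% in fresh sperm. Of the 12 losses, 6 reached a level below 16% in stored sperm.

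**Figure D3:**
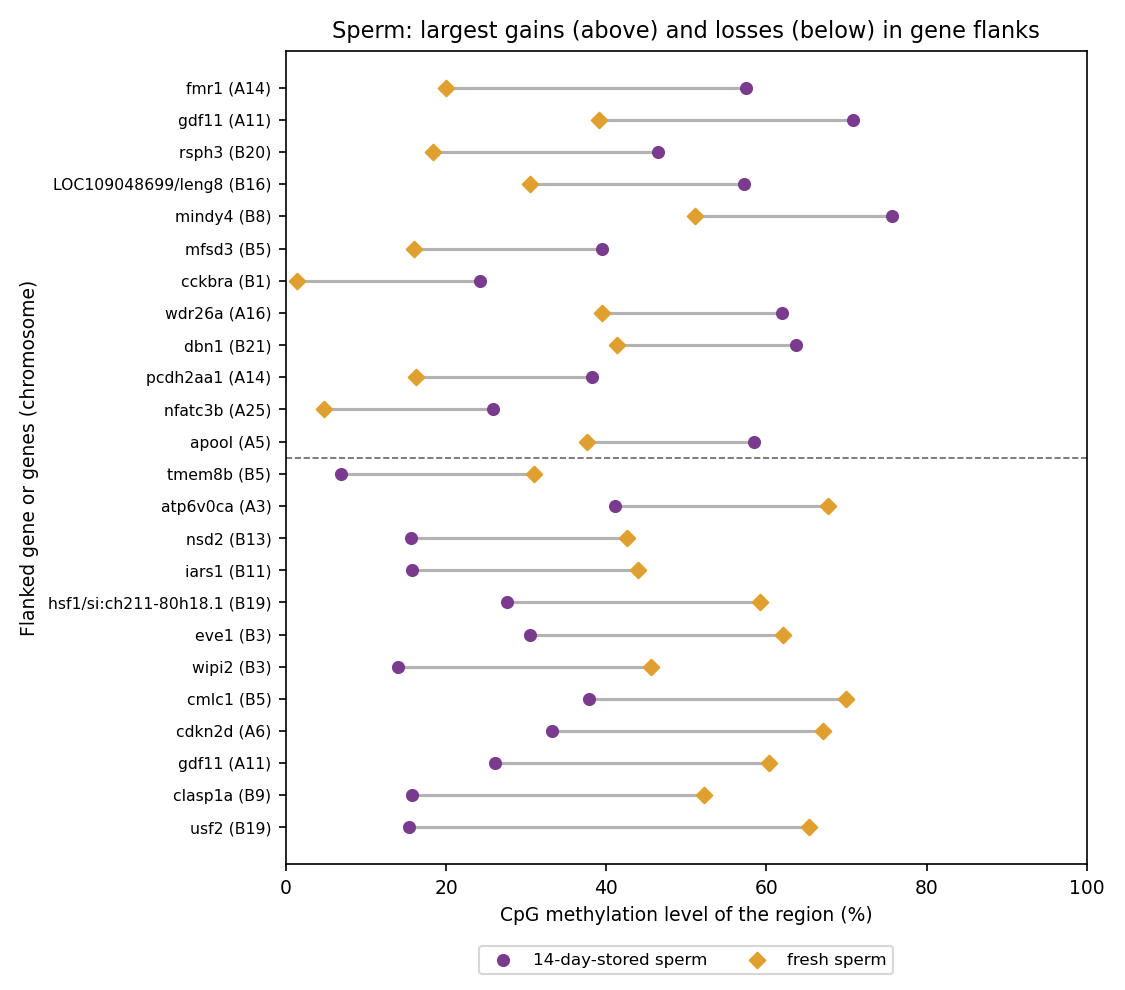
CpG methylation level (horizontal axis, %) of the 12 largest gains (above the dashed line) and 12 largest losses (below it) in sperm, among regions flanking a gene with a symbol. Circles are 14-day-stored sperm, diamonds fresh sperm, each the authors' mean of 3 libraries, and the longest line belongs to usf2 with 15.3% in 14-day-stored sperm and 65.3% in fresh sperm.

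Genes known only by a locus number held equally large differences. LOC109081543 on A23 had 72.4% in 14-day-stored sperm and 30.7% in fresh sperm, LOC109093788 on A7 had 71.0% in 14-day-stored sperm and 31.9% in fresh sperm, and LOC109052500 on A2 had 62.6% in 14-day-stored sperm and 24.3% in fresh sperm, the 3 largest gains of all. Among losses, LOC109054210 on A8 had 30.6% in 14-day-stored sperm and 78.5% in fresh sperm. LOC109084108 on A15 had 30.0% in 14-day-stored sperm and 70.4% in fresh sperm.

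In embryos the largest gain, and the largest difference in either direction, was at rpl10a, a protein of the large ribosomal subunit. In 39 bp with 5 CpG cytosines at 11826872 to 11826910 of B8, 634 bp before the gene's start, 85.8% was methylated in embryos from 14-day-stored sperm and 42.6% in embryos from fresh sperm, a difference of 43.2 points. The strip between lrch3 and serp1, a stress-associated protein of the endoplasmic reticulum, had 77.6% in embryos from 14-day-stored sperm and 41.8% in embryos from fresh sperm. At nop16, a nucleolar protein of ribosome assembly, adjoining regions were both higher, the larger with 63.6% in embryos from 14-day-stored sperm and 34.9% in embryos from fresh sperm, and the smaller with 21.7% in embryos from 14-day-stored sperm and 5.27% in embryos from fresh sperm. These gains do not stand for ribosomal genes as a whole, since the strip beside rps25 of the small subunit was among the 12 largest embryo losses.

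At stat5b, a transcription factor activated by cytokine and growth hormone receptors, 45 bp with 10 CpG cytosines on A12 had 64.2% in embryos from 14-day-stored sperm and 36.2% in embryos from fresh sperm. At fas, the death receptor that triggers apoptosis, a region of 7 bp on B17 had 39.6% in embryos from 14-day-stored sperm and 12.4% in embryos from fresh sperm. At gucy2ca, a receptor guanylate cyclase, the level was 93.1% in embryos from 14-day-stored sperm and 67.9% in embryos from fresh sperm. These regions were at different levels in the fresh group, so gains were not confined to 1 part of the scale.

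The ubiquitin ligase gene ube3a had 77.0% in embryos from 14-day-stored sperm and 50.6% in embryos from fresh sperm. At gsg1l, which encodes an auxiliary subunit of AMPA-type glutamate receptors in mammals, it was 79.3% in embryos from 14-day-stored sperm and 56.1% in embryos from fresh sperm. At wasf3a, which promotes actin branching at the cell edge, 1 region had 67.1% in embryos from 14-day-stored sperm and 43.9% in embryos from fresh sperm, and a second had 57.7% in embryos from 14-day-stored sperm and 36.3% in embryos from fresh sperm. The deubiquitinase family gene mindy4 had 91.0% in embryos from 14-day-stored sperm and 68.7% in embryos from fresh sperm, and a region at dub had 63.4% in embryos from 14-day-stored sperm and 42.0% in embryos from fresh sperm.

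The largest embryo loss was at cplx2, a complexin that controls the release of synaptic vesicles. At 22117675 to 22117714 of B14 it had 45.0% in embryos from 14-day-stored sperm and 81.6% in embryos from fresh sperm, a difference of -36.6 points. The region at zgc:194839 had 63.1% in embryos from 14-day-stored sperm and 92.6% in embryos from fresh sperm. At bloc1s6, a subunit of a complex that builds lysosome-related organelles, it was 53.1% in embryos from 14-day-stored sperm and 81.2% in embryos from fresh sperm. At msi2b, an RNA-binding protein of the Musashi family, it was 70.5% in embryos from 14-day-stored sperm and 96.0% in embryos from fresh sperm. In these 4 regions embryos from fresh sperm were methylated above 81%.

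Other embryo losses reached low levels. The strip between rps25, a protein of the small ribosomal subunit, and slc37a4b, a glucose 6-phosphate transporter, had 1.33% in embryos from 14-day-stored sperm and 26.2% in embryos from fresh sperm. At glulb, a glutamine synthetase, 18.9% was methylated in embryos from 14-day-stored sperm and 47.0% in embryos from fresh sperm. Between kank1a and dmrt1, a transcription factor of testis development, the level was 18.0% in embryos from 14-day-stored sperm and 43.8% in embryos from fresh sperm. At rab11fip3, an effector of Rab11 in recycling endosomes, it was 29.5% in embryos from 14-day-stored sperm and 54.9% in embryos from fresh sperm. In these 4 regions embryos from 14-day-stored sperm were methylated below 30%.

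The UDP-glucuronosyltransferase gene ugt2a5 had 38.2% in embryos from 14-day-stored sperm and 65.7% in embryos from fresh sperm. The region at si:dkey-237i9.1 had 41.4% in embryos from 14-day-stored sperm and 65.7% in embryos from fresh sperm. The autophagy gene wipi2 had 9.89% in embryos from 14-day-stored sperm and 36.2% in embryos from fresh sperm. The tRNA synthetase gene iars1 had 8.95% in embryos from 14-day-stored sperm and 32.5% in embryos from fresh sperm. Both of these genes also stood among the 12 largest sperm losses.

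**Figure D4:**
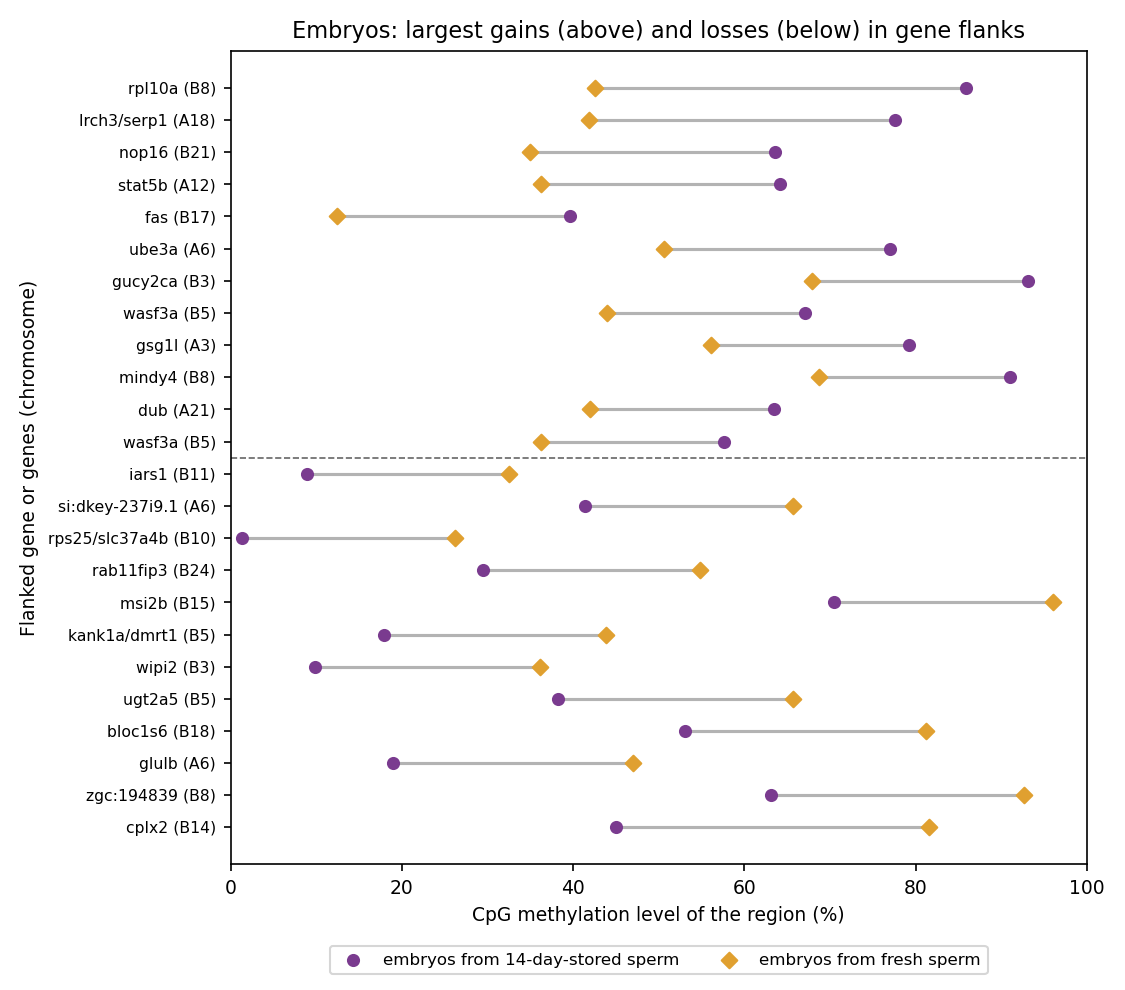
CpG methylation level (horizontal axis, %) of the 12 largest gains (above the dashed line) and 12 largest losses (below it) in embryos, among regions flanking a gene with a symbol. Circles are embryos from 14-day-stored sperm, diamonds embryos from fresh sperm, each the authors' mean of 3 libraries, and the longest line belongs to rpl10a with 85.8% in embryos from 14-day-stored sperm and 42.6% in embryos from fresh sperm.

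A gene's flank could hold several regions, and these did not always point the same way. In sperm 51 genes and in embryos 60 genes had at least 2 flanking regions. Of neighbouring regions on the same side of a gene, 30 of 44 pairs in sperm had the same direction (68.2%, 53.4% to 80.0%) and 34 of 60 in embryos (56.7%, 44.1% to 68.4%), at median gaps of 154 bp and 119 bp. The clearest opposition in sperm was at gdf11, a ligand of the TGF-beta family that patterns the body axis. The region at 3958389 to 3958492 of A11 had 26.1% in 14-day-stored sperm and 60.3% in fresh sperm, while 310 bp further on, 3958803 to 3958834 had 70.8% in 14-day-stored sperm and 39.1% in fresh sperm. Both regions lay after the gene's end, so within a single gene flank a large loss was followed by a gain of like size.

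Embryos had the same kind of mixed flanks. At glulb a gain with 30.2% in embryos from 14-day-stored sperm and 16.1% in embryos from fresh sperm lay beside the loss already given. At spint1b, a membrane-bound inhibitor of serine proteases, one region had 33.6% in embryos from 14-day-stored sperm and 19.8% in embryos from fresh sperm, and its neighbour had 14.7% in embryos from 14-day-stored sperm and 34.3% in embryos from fresh sperm. Uniform flanks included arl13a in sperm, a small GTPase family member, with 13.0% and 15.9% in 14-day-stored sperm against 0.740% and 3.32% in fresh sperm in its pair of regions. The strip between srsf3b, a splicing factor, and pth4, a parathyroid hormone, was uniform in sperm too, with 40.9% and 29.8% in 14-day-stored sperm against 54.7% and 47.4% in fresh sperm.

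Flank and gene body of the same gene did not go together in direction. In sperm 324 of the 1097 flanked genes (29.5%) also had a listed region in their body, against 26.0% of all protein-coding genes, and in embryos 278 of 1059 (26.3%), against 24.5%. The flanking region and the nearest body region had the same direction in 177 of 343 pairs in sperm (51.6%, 46.3% to 56.8%) and in 148 of 291 pairs in embryos (50.9%, 45.1% to 56.6%).

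Gene groups were formed by patterns of gene symbols and were small, since most flanked genes have only a locus number. A pattern misses genes of the same function with other names, several of which are among the regions already described, so each count and direction below holds for the genes the pattern caught and not for the function. By pattern, small GTPases and their regulators, the switches of vesicle traffic and cytoskeleton, had flanking regions at 10 of 175 genes in sperm, with 8 regions higher and 3 lower in the stored group. The gain at rasa2, a GTPase-activating protein of Ras, had 91.0% in 14-day-stored sperm and 72.7% in fresh sperm. The loss at rasgef1bb had 54.4% in 14-day-stored sperm and 72.6% in fresh sperm. In embryos the same group had 4 of 175 genes, with 3 regions higher and 2 lower. Of these, rgs2 had 92.2% in embryos from 14-day-stored sperm and 73.7% in embryos from fresh sperm. The pattern caught rgs2 by its symbol, although it turns off signals of receptor-coupled G proteins and not of small GTPases. Outside the pattern were acap3a, a loss in both tissues, syngap1b, a sperm gain, and rabgap1l, an embryo gain.

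The transcription factor pattern had 6 of 256 genes in sperm, with 3 regions higher and 4 lower, and 7 of 256 in embryos, with 2 higher and 6 lower. It did not catch nfatc3b, nfe2, irf10 and nfkb2, which were sperm gains, nor irf1b, an embryo gain. Missed as well were eve1 and hsf1, both sperm losses, and dmrt1, an embryo loss. Beside the losses at usf2, the T-box gene tbx19 had 27.2% in 14-day-stored sperm and 43.1% in fresh sperm, and the gain at gata2a, a regulator of blood and endothelial cells, had 99.5% in 14-day-stored sperm and 87.7% in fresh sperm. In embryos nr3c1, the glucocorticoid receptor, had 58.5% in embryos from 14-day-stored sperm and 76.2% in embryos from fresh sperm. The 6 embryo losses include both regions of neurod6a and regions of nr3c1, tcf20, ets2 and herpud2, the last of which the symbol pattern caught although it is a protein of the endoplasmic reticulum. The embryo gain at paxip1, a gene for a PAX-interacting protein, was likewise caught by its symbol.

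The ion channel pattern had 4 of 134 genes in sperm, all 4 higher in the stored group, and 0 of 134 in embryos. It did not catch the cyclic nucleotide-gated channel gene cnga3a, which was higher in both tissues, with 98.8% in 14-day-stored sperm and 88.6% in fresh sperm, and 95.2% in embryos from 14-day-stored sperm and 83.8% in embryos from fresh sperm. The 4 were kcnv2a, a modifier subunit of potassium channels, with 96.8% in 14-day-stored sperm and 83.2% in fresh sperm, kcnj6, a G-protein-gated potassium channel, with 62.7% in 14-day-stored sperm and 50.3% in fresh sperm, the acid-sensing channel gene asic4b with 96.3% in 14-day-stored sperm and 84.3% in fresh sperm, and the ATP-gated channel gene p2rx8 with 95.9% in 14-day-stored sperm and 85.8% in fresh sperm. As 60.2% of all sperm flanking regions were higher, 4 gains of 4 are not set apart from the rest here.

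The ribosome and translation pattern caught genes in both lists. In sperm they were 3 of 134 genes, with 3 regions higher, led by rps15a of the small ribosomal subunit with 25.9% in 14-day-stored sperm and 7.14% in fresh sperm. In embryos they were 4 of 134 genes, with 2 regions higher and 2 lower, among them the gain at rpl10a, the loss at rps25 and a gain at rps14 with 96.6% in embryos from 14-day-stored sperm and 82.5% in embryos from fresh sperm. The remaining loss, at rps6ka5, was caught by the pattern although the gene encodes a kinase. Outside the pattern were iars1, a loss in both tissues, and nop16, a gain in embryos.

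The RNA processing list had 6 of 168 genes in sperm, with 4 regions higher and 3 lower, and 1 of 168 in embryos. The embryo gene was polr2i, and the 6 sperm genes included polr2i and polr1f. Beside fmr1 and srsf3b the list held ago1, which carries small RNAs to their targets, with 93.5% in 14-day-stored sperm and 79.3% in fresh sperm. The DNA repair and cell cycle list had 7 of 123 genes in sperm, with 5 regions higher and 2 lower, and 3 of 123 in embryos, with 2 higher and 1 lower. Its pattern also caught polr2i and polr1f, which are RNA polymerase subunits, and missed the sperm loss at cdkn2d. Its own genes included mcm6, a subunit of the replicative helicase, with 92.3% in 14-day-stored sperm and 78.2% in fresh sperm, cdc20, an activator of the anaphase-promoting complex, with 93.7% in 14-day-stored sperm and 83.2% in fresh sperm, and, in embryos, the nucleotide excision repair gene rad23b with 39.7% in embryos from 14-day-stored sperm and 58.7% in embryos from fresh sperm.

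The immune pattern had 5 of 127 genes in sperm, with 3 regions higher and 2 lower, and 2 of 127 in embryos, 1 in each direction, without fas and icam1, which have flanking regions in both lists. The NF-kappaB subunit gene nfkb2 had 24.8% in 14-day-stored sperm and 10.2% in fresh sperm, and nfkbie, which encodes an inhibitor of NF-kappaB, had 99.3% in 14-day-stored sperm and 87.5% in fresh sperm. In embryos ifngr2, a chain of the interferon gamma receptor, had 47.8% in embryos from 14-day-stored sperm and 61.3% in embryos from fresh sperm over 17 CpG cytosines.

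The ubiquitin and proteasome pattern had 5 of 219 genes in sperm, with 4 regions higher and 1 lower, and 3 of 219 in embryos, with 2 higher and 1 lower. Genes outside it included mindy4, a gain in both tissues, wdr26a, a sperm gain, and skp2 and asb14b, both sperm losses. The loss was at the ligase gene hecw1b, with 52.7% in 14-day-stored sperm and 72.8% in fresh sperm, and among the gains rnf180a had 97.1% in 14-day-stored sperm and 83.7% in fresh sperm. The kinase and phosphatase pattern had 5 of 211 in sperm, with 4 higher and 1 lower, and 1 of 211 in embryos. It did not catch the kinase genes ros1, phkg1a and gsk3bb, which were higher in stored sperm, nor the phosphatase gene ssh1a, which was lower. In embryos it missed txk, which was higher, and rps6ka5, which was lower in the stored group. The kinase subunit gene csnk2a2b had 94.7% in 14-day-stored sperm and 80.8% in fresh sperm, and camk2b1, a calmodulin-dependent kinase, had 96.9% in 14-day-stored sperm and 85.2% in fresh sperm. In embryos adjoining regions of the phosphatase scaffold gene ppp2r1ba were opposed, with 73.6% in embryos from 14-day-stored sperm and 91.9% in embryos from fresh sperm in one, and 95.2% in embryos from 14-day-stored sperm and 84.6% in embryos from fresh sperm in the other.

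Genes of the methionine cycle, which supplies the methyl groups for DNA methylation, had 1 of 27 members in each list. In sperm this was ahcy, which removes the product that inhibits methyltransferases, with 95.6% in 14-day-stored sperm and 85.1% in fresh sperm. In embryos it was the folate enzyme gene mthfd2l, with 40.6% in embryos from 14-day-stored sperm and 58.1% in embryos from fresh sperm. The chromatin pattern had 2 of 80 genes in sperm, 1 in each direction, with the gain at chd4b, a nucleosome remodeller, at 97.5% in 14-day-stored sperm and 84.5% in fresh sperm. In embryos it had 1 of 80, the remodeller subunit gene smarcd3b, with 98.6% in embryos from 14-day-stored sperm and 87.5% in embryos from fresh sperm. It did not catch nsd2, a loss in both tissues, nor in embryos jarid2a, with 78.0% in embryos from 14-day-stored sperm and 91.5% in embryos from fresh sperm, and prmt2, with 97.6% in embryos from 14-day-stored sperm and 87.6% in embryos from fresh sperm.

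The cilium, centrosome and microtubule pattern, for genes that build the sperm tail among other structures, had 1 of 194 genes in sperm, the gain at rsph3, and 3 of 194 in embryos, with 1 region higher and 2 lower. The sperm loss at clasp1a was outside the pattern. The dynein heavy chain gene dnah10 had 61.4% in embryos from 14-day-stored sperm and 75.4% in embryos from fresh sperm. The germ line pattern had 0 of 43 genes in sperm and 1 of 43 in embryos. That gene was spag7, caught by its symbol, and its loss is also counted in the cilium list. The embryo loss at dmrt1 was outside the germ line pattern. Growth factor genes had 2 of 114 in sperm, with 1 region higher and 2 lower, where the angiogenic factor gene vegfaa stood beside gdf11 with 84.2% in 14-day-stored sperm and 96.2% in fresh sperm, and 0 of 114 in embryos. Heat shock and folding genes had 1 of 76 in sperm, the loss at hsf1, and 0 of 76 in embryos.

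Solute carriers and pumps had 6 of 292 members in sperm, with 3 regions in each direction, and 3 of 292 in embryos, with 2 higher and 1 lower. The vesicle transport and autophagy pattern had 3 of 117 in sperm, with 1 higher and 2 lower, and 1 of 117 in embryos, which was lower. It did not catch the losses at wipi2 or the gains at yipf6, both found in sperm and embryos, nor an embryo gain at sh3glb1a. The syntaxin gene stx5al had 63.1% in 14-day-stored sperm and 77.7% in fresh sperm. Mitochondrial and energy metabolism genes had 2 of 153 in each list, and the complex I subunit gene ndufa6 had 14.1% in embryos from 14-day-stored sperm and 1.87% in embryos from fresh sperm. Zinc finger genes had 1 of 97 in sperm, znf451 with 70.4% in 14-day-stored sperm and 52.1% in fresh sperm, and 2 of 97 in embryos, 1 in each direction. The neuronal adhesion and synapse pattern had 2 of 100 in sperm and 1 of 100 in embryos, these 3 being higher, with nrp1a, a semaphorin co-receptor, at 97.5% in 14-day-stored sperm and 83.9% in fresh sperm. It did not catch the embryo losses at cplx2, at sypa, with 84.0% in embryos from 14-day-stored sperm and 94.9% in embryos from fresh sperm, and at lingo1b, with 85.1% in embryos from 14-day-stored sperm and 95.3% in embryos from fresh sperm. Of 10 genes that the study singles out, matched by gene number, none had a flanking region in either list. The study itself reports higher promoter methylation for 1 of them, cops6, in stored sperm. Its promoters are the sequence within 1 kb of a transcription start, whereas regions touching a gene body are left out here. The study also counts fewer differing regions than the region lists used here hold. Over all protein-coding genes 2.62% had a flanking region in sperm and 2.53% in embryos. Among the 9616 genes with a symbol, from which the patterns draw, the shares were 2.36% in sperm and 1.90% in embryos. No list was tested against these shares.

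The last question was whether embryos had flanking regions at the same sites as sperm and in the same direction. Sperm and embryo flanking regions overlapped by at least 1 bp in 105 pairs, made of 101 sperm regions (9.35% of the sperm flanking regions) and 105 embryo regions (9.88%). In gene bodies 7.08% of sperm regions and 7.55% of embryo regions were in such pairs, and away from genes 8.51% and 8.66%. In 57 pairs both tissues had the same direction, a share of 54.3% (44.8% to 63.5%), of which 23 were higher and 34 lower in both stored groups. In 19 pairs the stored group was higher in sperm and lower in embryos, and in 29 it was lower in sperm and higher in embryos. The share of the same direction was 47.4% of 1619 pairs in gene bodies (45.0% to 49.8%) and 50.2% of 1278 pairs away from genes (47.5% to 53.0%).

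Paired sites lay at lower levels than other flanking regions. Under 75% methylation lay 73.3% of the paired sperm regions, against 38.1% of all sperm flanking regions, and 77.1% of the paired embryo regions, against 41.9%. Over the 105 pairs the levels of the fresh groups went together between sperm and embryos (Pearson coefficient 0.82, Spearman coefficient 0.81), while the differences did so weakly (Pearson 0.13, Spearman 0.11). These values describe sites that share their sequence, and no p was computed for them.

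**Figure D5:**
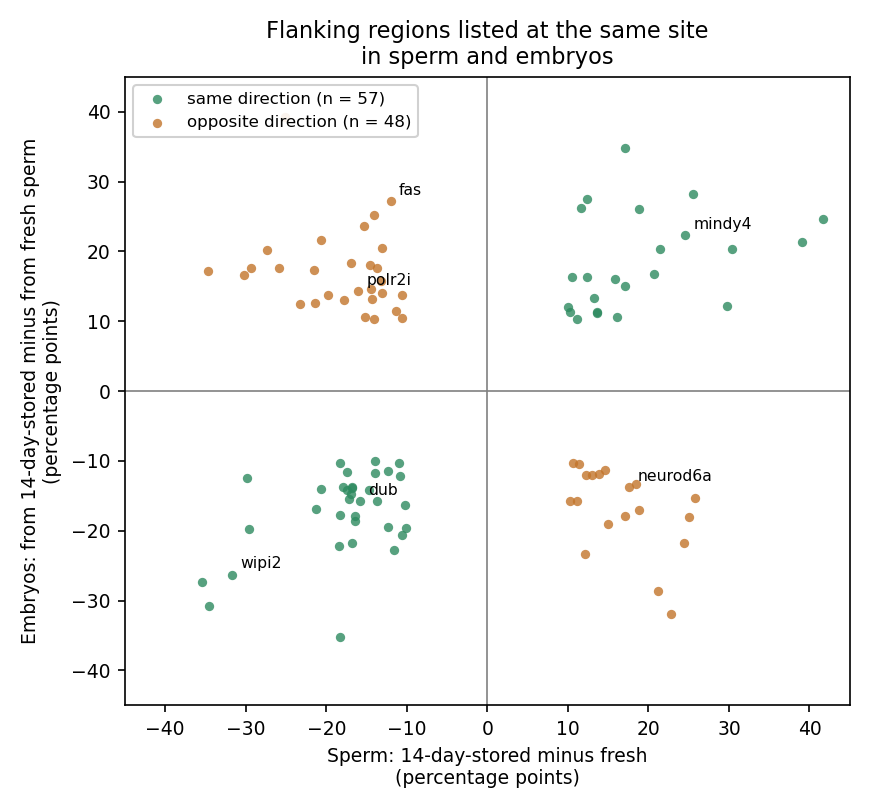
Difference between the stored and fresh group in sperm (horizontal axis) and in embryos (vertical axis), both in percentage points, for the 105 pairs of overlapping flanking regions. Green points (57) have the same direction in both tissues and orange points (48) opposite directions, all 4 quadrants are filled, and the empty cross in the middle is the 10-point minimum of the lists.

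Ranked by the smaller of its differences, the largest pair in the same direction was before the start of LOC109058250, at 24506848 to 24506857 of B14 in both lists. Sperm had 56.4% in the stored and 91.0% in the fresh group, and embryos had 55.4% in the stored and 86.1% in the fresh group. Here both stored groups and both fresh groups were within 5 points of each other across tissues. LOC109063916 on A13 had 0.596% in 14-day-stored sperm and 36.0% in fresh sperm, and 19.7% in embryos from 14-day-stored sperm and 47.1% in embryos from fresh sperm.

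The wipi2 flank on B3 was the largest such pair at a gene with a symbol, with the loss in sperm and the loss in embryos, given above, starting at the same base, 19864349. At mindy4 both tissues had the gains given above, and the regions shared 13 bp. At dub on A21 the sperm loss, with 65.2% in 14-day-stored sperm and 81.0% in fresh sperm, met an embryo loss of like size, with 53.2% in embryos from 14-day-stored sperm and 68.9% in embryos from fresh sperm. Yet 2 other embryo regions of the dub flank, within 200 bp of this site, were gains.

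Gains in both tissues were found at LOC122135483 on A24, with 61.4% in 14-day-stored sperm and 35.9% in fresh sperm, and 57.2% in embryos from 14-day-stored sperm and 29.0% in embryos from fresh sperm. LOC109081543, the largest sperm gain, had 43.9% in embryos from 14-day-stored sperm and 19.2% in embryos from fresh sperm. LOC109093788, the next in sperm, had 41.5% in embryos from 14-day-stored sperm and 20.2% in embryos from fresh sperm. The strip between LOC109099209 and LOC109111586 on B12 had 60.3% in 14-day-stored sperm and 38.8% in fresh sperm, and 84.3% in embryos from 14-day-stored sperm and 63.8% in embryos from fresh sperm. A further embryo region after the end of LOC109099209, 361 bp from the sperm region, was a loss. There the level was 81.7% in embryos from 14-day-stored sperm and 93.8% in embryos from fresh sperm. The adhesion gene icam1 on A3 had 24.1% in 14-day-stored sperm and 13.6% in fresh sperm, and 22.1% in embryos from 14-day-stored sperm and 5.85% in embryos from fresh sperm. Apart from the strip on B12, these sites were below 36% in both fresh groups.

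Opposed pairs reached similar sizes. LOC122134495 on A3 had 42.6% in 14-day-stored sperm and 67.8% in fresh sperm, but 68.7% in embryos from 14-day-stored sperm and 29.4% in embryos from fresh sperm. Another overlapping pair in its flank was a loss in both tissues. There the level was 53.9% in 14-day-stored sperm and 70.3% in fresh sperm. It was 52.2% in embryos from 14-day-stored sperm and 70.1% in embryos from fresh sperm. LOC122138545 on the same chromosome had 95.5% in 14-day-stored sperm and 72.6% in fresh sperm, but 59.3% in embryos from 14-day-stored sperm and 91.3% in embryos from fresh sperm. At LOC109056480 on A1 the level was 43.7% in 14-day-stored sperm and 22.5% in fresh sperm, but 20.0% in embryos from 14-day-stored sperm and 48.7% in embryos from fresh sperm. In each of these opposed pairs, embryos from stored sperm were closer to fresh sperm, and embryos from fresh sperm were closer to stored sperm. Choosing pairs for opposite directions favours such a crossing, so nothing is drawn from it. The next opposed pair, at LOC109099024, did not have it, since embryos from stored sperm were closer to stored sperm there.

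Another 5 completed the 8 largest opposed pairs. LOC109099024 on B11 had 60.8% in 14-day-stored sperm and 36.4% in fresh sperm, but 51.2% in embryos from 14-day-stored sperm and 72.9% in embryos from fresh sperm. LOC109112390 on A23 had 57.4% in 14-day-stored sperm and 32.3% in fresh sperm, but 32.8% in embryos from 14-day-stored sperm and 50.8% in embryos from fresh sperm. At the remaining 3 the stored group was lower in sperm and higher in embryos. LOC109051730 on A2 had 41.4% in 14-day-stored sperm and 62.1% in fresh sperm, but 61.8% in embryos from 14-day-stored sperm and 40.1% in embryos from fresh sperm. The same sperm region also overlapped an embryo loss, with 14.8% in embryos from 14-day-stored sperm and 28.9% in embryos from fresh sperm. LOC109099612 on A12 had 37.5% in 14-day-stored sperm and 64.9% in fresh sperm, but 60.6% in embryos from 14-day-stored sperm and 40.4% in embryos from fresh sperm. LOC109085567 on B24 had 24.5% in 14-day-stored sperm and 53.9% in fresh sperm, but 55.3% in embryos from 14-day-stored sperm and 37.6% in embryos from fresh sperm.

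Among genes with a symbol, polr2i, a subunit of RNA polymerase II, had the largest opposed pair by its smaller difference, with 24.4% in 14-day-stored sperm and 40.5% in fresh sperm over 31 CpG cytosines, and 43.4% in embryos from 14-day-stored sperm and 29.0% in embryos from fresh sperm. At neurod6a, a transcription factor of neurons, sperm had 62.8% in the stored and 45.2% in the fresh group, and embryos had 40.0% in the stored and 53.8% in the fresh group. At fas sperm had 22.2% in the stored and 34.2% in the fresh group, opposite to the embryo gain given above. The gene mterf3, a regulator of mitochondrial transcription and ribosome assembly, had 26.4% in 14-day-stored sperm and 11.8% in fresh sperm, and 16.7% in embryos from 14-day-stored sperm and 28.1% in embryos from fresh sperm.

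Counted by gene, 170 genes had a flanking region in both lists, which is 15.5% of the sperm genes and 16.1% of the embryo genes. No such count over genes with regions elsewhere is given here, so these shares and the directions that follow stand without a comparison. In 103 of them the regions overlapped, and 55 of these had the same direction. In the other 67 the nearest regions did not overlap, and 32 had the same direction. The iars1 flank was of this kind, with the sperm and embryo losses only 29 bp apart on B11. At nsd2 the losses lay 102 bp apart, the embryo region with 22.2% in embryos from 14-day-stored sperm and 41.3% in embryos from fresh sperm. At cnpy2, 105 bp apart, sperm had 38.2% in the stored and 61.9% in the fresh group, whereas embryos had 53.1% in the stored and 34.0% in the fresh group.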

How the data were processed

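By the study's methods and the submitters' processing notes, the authors aligned bisulphite reads to the carp assembly ASM1834038v1 using BSMAP, whose version is not given in the sources used here, discarded duplicates, joined the alignments belonging to a library and took methylated reads over all reads at a cytosine as its level. For each region the authors deposited 1 mean CpG level per group as a fraction, turned here into percent, and the count of CpG cytosines. The lists also hold the authors' p-value and difference for each region, which were not used. The 2-fold change that the methods name was met by 3.94% of listed sperm regions and 4.20% of embryo regions. The study's text reports fewer differing regions than these lists hold, in sperm and in embryos. How its counts relate to the lists was not determined. The lists give neither depth per sample nor values per library, so precision is unknown and no test was made. There were 0 columns of other samples.

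Sorted chromosome accessions were taken as A1 to A25, then B1 to B25. The last region and last gene of a chromosome ended within 221.5 kb of each other in sperm and 447.1 kb in embryos. Unplaced regions (3143 in sperm, 3059 in embryos) were left out. The gene table gave no strand or sequence, so the planned promoter sequences were not used. Regions named are the 12 largest gains and 12 largest losses per tissue at genes with symbols, the 8 largest overlapping pairs in each direction, 2 to 4 per gene list where there were so many, and any of the study's genes. Several of these pairs, the remaining pairs at genes with symbols, genes with several regions, genes in both lists and genes that the patterns missed were named as examples after their values were seen. The 21 gene lists are symbol patterns. Some genes of these lists are not reported here. The members and lists were chosen with earlier results of these data known. Python 3.11.15, numpy 2.4.6, pandas 2.3.3, scipy 1.17.1 and matplotlib 3.10.9 were used, and the assignment of regions to flanks was tested on simulated data.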

Additional observations from a re-analysis of the deposited data

How the results depend on the processing

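The 8 summary values were recomputed under the alternatives chosen at the outset. Of 58 recomputations, 29 stayed close to the value reported, 25 moved away from it, and in 4 a share turned to the other side of 50%. Only shares can turn in this way, since counts and median sizes have no direction. The share of sperm flanking regions higher after storage turned to 42.4% with at least 10 CpG cytosines and to 42.1% with a 2-fold change, and was 50.0% at differences of at least 20 points. The embryo share turned to 48.8% at 20 points, and was 59.5% with a 2-fold change and 57.4% with 10 CpG cytosines. Agreement between tissues turned to 31.6% with 10 CpG cytosines and was 87.5% with a 2-fold change. The counts of sperm regions, embryo regions and overlapping pairs were 551, 494 and 49 with a flank of 500 bp, 2086, 2118 and 199 with 2 kb, 150, 160 and 15 at 20 points, 126, 121 and 16 with a 2-fold change, and 158, 190 and 19 with 10 CpG cytosines. The median size of the difference in sperm and embryos was 23.8 and 24.5 points at 20 points, 17.9 and 18.3 with a 2-fold change, and 14.0 and 14.6 with 10 CpG cytosines. These last 3 settings keep fewer regions by their construction, and the cause of the turned shares was not tested. The shares of gains were recomputed for flanking regions alone, so a turn is not shown to be particular to flanks. No paired analysis was possible because the lists hold no values per library, and for the same reason no replicate could be left out.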

Other observations

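Agreement of direction between sperm and embryos at overlapping flanking regions differed with the kind of pair. Of the 16 pairs in which the levels of the stored and fresh groups differed at least 2-fold in both tissues, 14 had the same direction (87.5%, 64.0% to 96.5%), against 40 of 71 such pairs in gene bodies (56.3%, 44.8% to 67.3%) and 35 of 80 away from genes (43.8%, 33.4% to 54.7%). Of the 19 flanking pairs with at least 10 CpG cytosines in both lists, 6 had the same direction (31.6%, 15.4% to 54.0%), against 116 of 256 in gene bodies and 100 of 199 away from genes. These differences rest on few pairs and were not tested.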
